A study of Mus musculus with 21 samples.

Results

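The 7 genes described here act where peptides are loaded onto MHC class II molecules in conventional dendritic cells (cDCs). H2-DMa, H2-DMb1 and H2-DMb2 encode the chains of H2-DM, H2-Oa and H2-Ob those of H2-O, Ciita the class II transactivator and Cd83 a surface protein of mature dendritic cells. They were chosen by name, as the 7 of 37734 genes in the data that carry these symbols, and all 7 were among the 14970 genes with enough reads to be tested.

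RNAseq was performed on 21 libraries of FACS-sorted cDCs of C57BL/6 mice aged 6 to 8 weeks, each made from cells of pooled mice. cDC1 were sorted as CD24+ CD11b- and cDC2 as CD24- CD11b+ cells among CD11c+ B220- cells. Immature cells were CCR7- Esam- and came from spleen or thymus, whereas mature cells were CCR7+ Esam+ and came from the thymus. The spleen gave 5 cDC1 and 3 cDC2 libraries, the immature thymic gate 4 cDC1 and 3 cDC2, and the mature thymic gate 3 of each subset. Mature splenic cDCs were not analysed here, so maturation was compared in the thymus and tissues were compared in immature cells.

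In the endosomal pathway, the invariant chain is cut down to a short peptide called CLIP, which stays in the groove of the class II molecule. H2-DM, a non-classical class II molecule, releases CLIP and lets antigenic peptides compete for the groove, and H2-O binds H2-DM and inhibits it. CIITA is recruited by RFX, CREB and NF-Y to paired X and Y boxes upstream of class II genes, including those of H2-DM, H2-O and the invariant chain. CD83 opposes the ubiquitin ligase MARCH1, which otherwise drives class II molecules off the cell surface.

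The upstream sequences of 5 of the 7 genes were in the RefSeq promoter table for build GRCm38.p6, and 4 of them held the same pair of motifs. The search was for CNANNAAC (read as an X box) followed after 20 to 35 bases by ATTGG (the CCAAT box of NF-Y, read on the opposite strand), in the 250 bases before the RefSeq start and on both strands. H2-Oa, H2-DMb2, H2-DMb1 and H2-Ob held it, as did H2-Eb1 and H2-Eb2 of the class II beta chains, and it was found in 0.447% of all 32851 promoters. The pair was chosen after these promoters had been seen, so its presence in them is a description and no test. Of the single motifs, CNANNAAC was in 27.8% and ATTGG in 33.8% of promoters. The pair was not in the H2-DMa windows, of which 1 held ATTGG alone. Nor was it in the window of H2-Aa, a class II alpha chain gene, which also held ATTGG alone. Of the 25 other class II pathway genes described below, 18 had an entry. The class II beta chain gene H2-Ab1 and the invariant chain gene Cd74 had none and were not searched. The windows with the pair are shown because their genes responded unequally to maturation, and because H2-Eb2 moved in the opposite direction. All lie on the plus strand of chromosome 17, with CNANNAAC and ATTGG in capitals.
H2-Oa (chr17:34092285-34092355): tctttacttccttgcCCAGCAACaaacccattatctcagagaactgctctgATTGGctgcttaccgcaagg
H2-DMb2 (chr17:34145108-34145178): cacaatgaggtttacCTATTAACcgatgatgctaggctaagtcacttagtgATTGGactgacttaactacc
H2-DMb1 (chr17:34153079-34153108): cacaatgaggtttacCTAGTAACtgatgat
H2-Ob (chr17:34238800-34238867): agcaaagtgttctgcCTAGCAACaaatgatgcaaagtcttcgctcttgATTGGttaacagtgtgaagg
H2-Eb1 (chr17:34305758-34305827): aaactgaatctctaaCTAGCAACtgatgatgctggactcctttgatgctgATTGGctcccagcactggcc
H2-Eb2 (chr17:34325525-34325594): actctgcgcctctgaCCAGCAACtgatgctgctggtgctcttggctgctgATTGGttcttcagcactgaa

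The pair ended 38 bases before the RefSeq start in H2-Oa, 85 in H2-DMb2, 56 in H2-DMb1, 52 in H2-Ob, 54 in H2-Eb1 and 95 in H2-Eb2. In the GENCODE annotation the last 16 bases of the H2-Oa window fall in its first exon. The whole H2-DMb1 window of 71 bases falls in the first exon of a longer transcript, and its first 30 bases are shown. The 4 other windows lie outside the exons of their genes. The windows of H2-DMb1 and H2-DMb2, neighbouring genes for alternative beta chains, had the same base at 62 of 71 positions. A match of these letters is a description and does not show that a factor binds there.

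Between 14266867 and 40119669 reads were counted per library, and each value of the 7 genes rested on 216 to 65426 reads. Splenic cDC1 replicates 4 and 5 carried the same pool, index and lane in their labels. Their counts differed by a chi-square of 2.44 for each degree of freedom, where other pairs within that group gave 25 to 176, and they were averaged as 1 sample. Replicate 3 of splenic cDC1 stood apart from the others, and the values of that group are given sample by sample for H2-DMa, H2-DMb2, H2-Oa and H2-Ob. In replicate 3, H2-DMb1 was at 13172, Ciita at 31085 and Cd83 at 22658, each the highest of that group. By the same chi-square, pairs with mature thymic cDC2 replicate 3 gave 144 and 125, against 26.9 for the other pair of its group. Pairs with splenic cDC2 replicate 2 gave 106 and 132, against 35.3. That mature cDC2 replicate was the lowest of its group for every member except Cd83. Averaging left 20 samples, with n = 4 in immature splenic and immature thymic cDC1 and n = 3 in the other groups. Of these, splenic cDC1 replicate 1, from lane 5, carried the same pool label, 2, as replicates 4 and 5. Immature thymic cDC1 replicates 3 and 4 carried the pool labels 8 and Et8. The 4 samples of either group therefore need not be 4 separate pools. Nothing states that the pools were of separate animals, so p-values measure the spread between these samples. The dendritic cell genes Itgax and Zbtb46 were at 1555 and 2693 normalized read counts or more in every sample. Sirpa was at 5415 to 28215 in cDC2 against 173 to 1548 in cDC1. Ccr7, part of the gate, was at 91722 to 129531 in mature and at 261 to 5433 in immature samples. Xcr1, a cDC1 marker, was at 253 to 557 in mature against 16194 to 20744 in immature thymic cDC1. These genes belong to a list of 10 cDC and sorting genes. By the calls defined below, 5 of the 10 were lower and 2 higher with maturation in each subset. Of all tested genes, 24.5% were called lower and 21.3% higher in cDC1, and 17% and 18.6% in cDC2. In mature thymic cDC1, 1 of the 10 was at 0 in every sample.

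The H2-DM, H2-O and Ciita transcripts were lower in mature than in immature thymic cDC1, and Cd83 was higher. Called here means that limma gave an adjusted p under 0.1 with more than 2-fold change. By that measure 6 members fell and 1 rose, against 24.5% of all tested genes called lower and 21.3% called higher. None of the 7 overlapped between the groups, where 28.1% of all genes were lower and 27.3% higher without overlap. In thymic cDC2, 4 members fell (H2-DMa, H2-DMb1, H2-Ob and Ciita) and 3 were not called, against 17% of all tested genes called lower and 18.6% called higher. Without overlap, 6 members were lower and 1 higher there, against 28.8% and 31.1% of all genes. The median log2 fold change of the 7 genes was -3.50 in cDC1 and -1.68 in cDC2, and that of all tested genes was -0.04 and 0.04. Since the samples are bulk RNA, fewer cells that express a gene and less RNA per cell cannot be told apart.

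**Figure D1:**
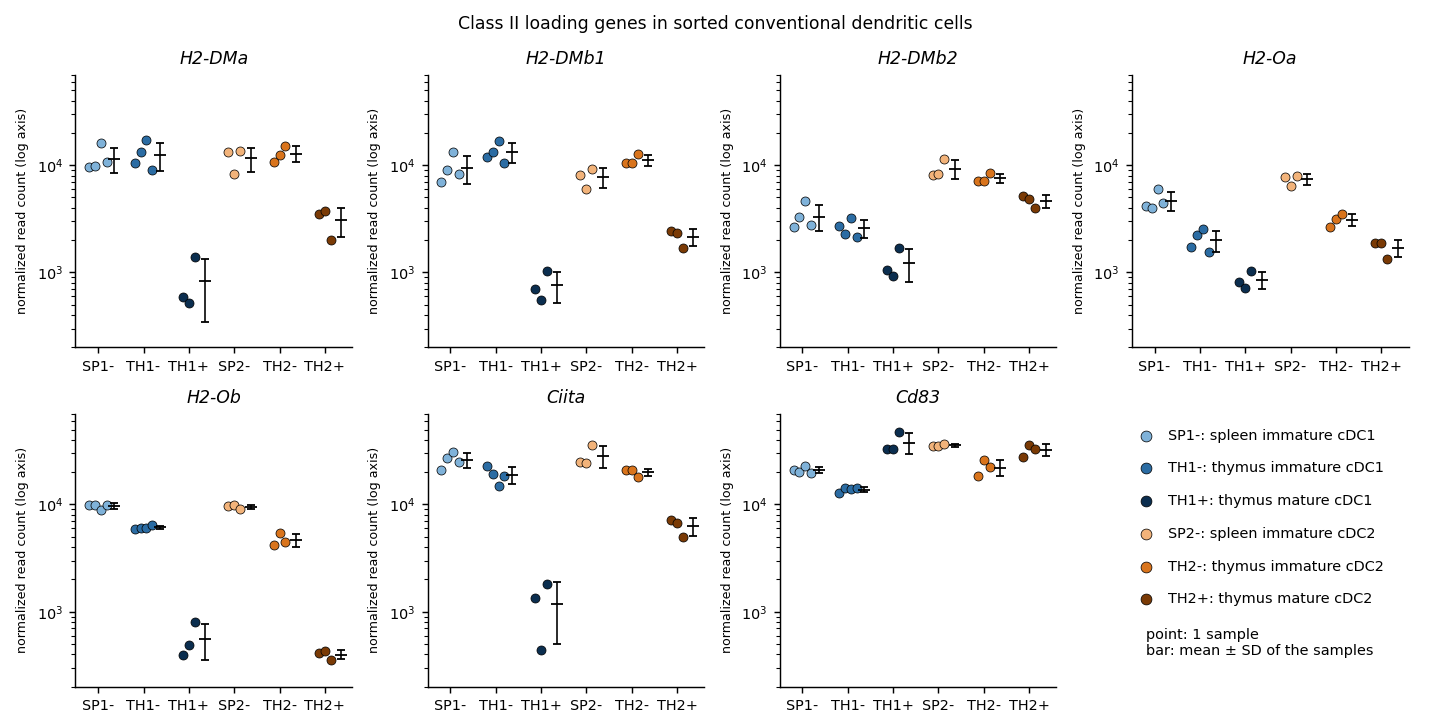
Normalized read counts (log axis) of the 7 genes in each sample of the 6 groups, with the mean and SD beside the points of each group. H2-DMa, H2-DMb1, H2-Ob and Ciita drop to between 358 and 7245 in the mature samples, whereas Cd83 is at 27729 to 47191 there.

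H2-DMa (ENSMUSG00000037649, mm10 chromosome 17 from 34119541 to 34139101) encodes the alpha chain of H2-DM. Its normalized read count was 10489, 13206, 17291 and 8973 in the 4 immature thymic cDC1 samples and 594, 518 and 1403 in the 3 mature ones. In thymic cDC2 it was 10746, 12559 and 15159 in immature and 3534, 3718 and 2018 in mature samples. Every mature sample was below every immature one in both subsets, and all mature cDC2 were above all mature cDC1. The log2 fold change with maturation was -4.00 (standard error 0.31, limma adjusted p = 8.73e-10) in cDC1 and -2.09 (standard error 0.33, adjusted p = 3.00e-05) in cDC2, a 16.0-fold and a 4.26-fold decrease. In the spleen the values were 9522, 9780, 16104 and 10615 in cDC1 and 13163, 8238 and 13455 in cDC2. The 4 immature groups, with means of 11505 to 12821, overlapped, and neighbours in their order did not differ beyond the spread (adjusted p from 0.853 to 0.993). An exon stretch of 360 bases overlaps the antisense gene Brd2; the library kit keeps strand, but the strand setting of the counting is not given in the sources used here.

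H2-DMb1 (ENSMUSG00000079547, chromosome 17 from 34153072 to 34160230) encodes a beta chain of H2-DM. It was at 12038, 13411, 16985 and 10372 in immature and 699, 553 and 1036 in mature thymic cDC1. In thymic cDC2 it was at 10484, 10435 and 12724 in immature and 2434, 2326 and 1695 in mature samples. As for H2-DMa, no mature sample reached an immature one. The decrease was 17.6-fold in cDC1 (log2 fold change -4.14, standard error 0.23, adjusted p = 6.21e-12) and 5.25-fold in cDC2 (log2 fold change -2.39, standard error 0.25, adjusted p = 1.23e-07). Splenic cDC1 had a mean of 9392 ± 2666 (SD, n = 4), and splenic cDC2 one of 7831 ± 1655 (SD, n = 3). Neighbours in the order of the 4 immature groups overlapped, although every thymic cDC2 sample was above every splenic cDC2 sample (log2 difference 0.53, adjusted p = 0.146).

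H2-DMb2 (ENSMUSG00000037548, chromosome 17 from 34143307 to 34151555) encodes the other beta chain and had a different pattern. It was at 2689, 2270, 3241 and 2147 in immature and 1062, 927 and 1708 in mature thymic cDC1. In thymic cDC2 it was at 7148, 7132 and 8399 in immature and 5166, 4792 and 3951 in mature samples. Mature samples were again below immature ones of the same subset, but every mature cDC2 was above every immature thymic cDC1. The log2 fold change was -1.10 (standard error 0.22, adjusted p = 1.86e-04) in cDC1 and -0.71 (standard error 0.23, adjusted p = 0.0158), under 2-fold and not called, in cDC2. The call in cDC1 was lost without mature thymic cDC1 replicate 2, at -0.92, and without immature thymic cDC1 replicate 3, at -0.99, both under 2-fold.

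H2-DMb2 was the only member called between subsets in immature cells. In the spleen it was at 2654, 3262, 4621 and 2744 in cDC1 and at 8065, 8270 and 11384 in cDC2. The log2 difference of cDC2 from cDC1 was 1.49 (standard error 0.22, adjusted p = 2.03e-05) in the spleen and 1.56 (standard error 0.22, adjusted p = 1.28e-05) in the immature thymus. Of all tested genes, 9.93% were called higher in splenic and 11% in immature thymic cDC2. H2-Oa and Cd83 were also higher in cDC2 than cDC1 without overlap in both tissues, with log2 differences of 0.65 to 0.77, under 2-fold. That makes 3 members higher without overlap, against 17% of all genes in the spleen and 20.2% in the thymus. H2-Ob was lower without overlap in immature thymic cDC2, at a log2 difference of -0.39 (adjusted p = 0.117), against 14.5% of all genes. Within lane 8 the H2-DMb2 difference was 1.62 in the thymus (adjusted p = 0.00101). In the spleen it was 1.68, where the lane held 1 cDC2 sample, so that this value has no replicate check. Macrophage markers were also higher in cDC2, with 6 of 7 called in the spleen and 7 of 7 in the immature thymus. Their summed level was 5126 to 6384 against 217 to 432 in the spleen, and 7552 to 10562 against 421 to 524 in the immature thymus. Their part in the difference was not tested.

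Per kilobase of exon, the share of H2-DMb2 among both beta chains therefore varied widely. It was 25.4% ± 1.18 (SD, n = 4) in splenic and 16.0% ± 1.58 (SD, n = 4) in immature thymic cDC1, and 60.8% ± 1.26 (SD, n = 3) in mature thymic cDC1. In cDC2 the share was 53.2% ± 4.07 in the spleen, 39.4% ± 0.46 in the immature thymus and 67.6% ± 1.41 among mature thymic cells (SD, n = 3 each). Within each subset no sample of 1 group fell in the range of another, and within each tissue and maturation state the cDC2 samples were above the cDC1 samples. No test was made on this share, which combines members, and it does not depend on the scaling of libraries. The genes are similar in sequence: of the windows of 150 bases, the read length, in the longest H2-DMb1 transcript, 5.74% occur unchanged in H2-DMb2, and 13.7% of windows of 100 bases do. The longest identical stretch was 221 bases, so the split of reads between both genes is uncertain to that extent.

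**Figure D2:**
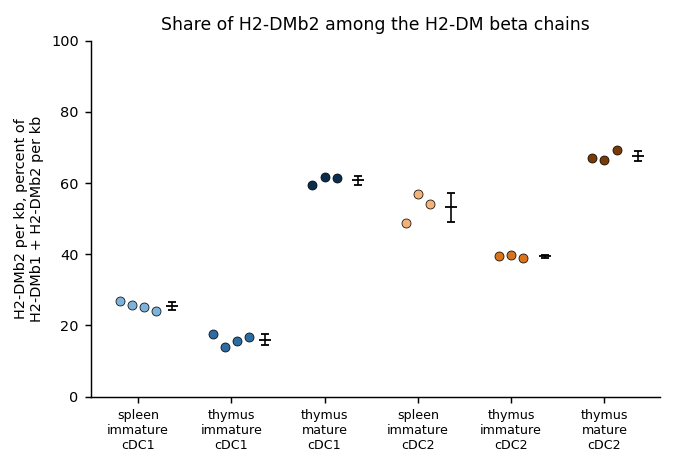
Share of H2-DMb2 in percent of H2-DMb1 plus H2-DMb2, each per kilobase of exon, in every sample (points) with the group mean and SD. The share is lowest in immature thymic cDC1, at 14.0 to 17.7%, and highest in mature thymic cDC2, at 66.5 to 69.2%.

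H2-Oa (ENSMUSG00000024334, chromosome 17 from 34092340 to 34095234) encodes the alpha chain of H2-O and was lower in immature thymic than splenic cells and lower again in mature cells. In cDC1 it was at 4174, 3990, 6053 and 4415 in the spleen, at 1731, 2218, 2533 and 1558 in immature and at 822, 723 and 1034 in mature thymic samples. In cDC2 the values were 7795, 6388 and 7927 in the spleen, 2675, 3155 and 3506 in immature and 1887, 1878 and 1346 in mature thymic cells. None of these successive groups overlapped. The log2 difference of thymic from splenic immature cells was -1.22 (standard error 0.18, adjusted p = 4.66e-05) in cDC1 and -1.25 (standard error 0.20, adjusted p = 1.43e-04) in cDC2. The log2 fold change with maturation was -1.21 (standard error 0.19, adjusted p = 1.49e-05) in cDC1, and -0.88 (standard error 0.20, adjusted p = 0.00133), under 2-fold and not called, in cDC2. Both comparisons use the immature thymic samples and are not independent. In the order of the 6 groups, only immature thymic cDC1 and mature thymic cDC2 overlapped as neighbours. The antisense gene BC051537 shares 321 exon bases with H2-Oa.

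H2-Ob (ENSMUSG00000041538, chromosome 17 from 34238903 to 34254414) encodes the beta chain of H2-O and had the largest maturation change of the 7 members in cDC2. It was at 5895, 6026, 6093 and 6456 in immature and at 398, 489 and 800 in mature thymic cDC1. In thymic cDC2 it was at 4184, 5434 and 4489 in immature and at 410, 429 and 358 in mature cells. The mature samples of both subsets overlapped with each other and lay far below all others. The log2 fold change was -3.50 (standard error 0.17, adjusted p = 5.49e-13) in cDC1 and -3.55 (standard error 0.18, adjusted p = 4.86e-12) in cDC2, an 11.3-fold and an 11.7-fold decrease.

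H2-Ob was also lower in immature thymic than in splenic cells, where it was at 9953, 9975, 8804 and 9931 in cDC1 and at 9767, 9855 and 9099 in cDC2. The log2 difference was -1.03 (standard error 0.18, adjusted p = 2.69e-04) in cDC2, which was called, and -0.66 (standard error 0.16, adjusted p = 0.00589) in cDC1, which was under 2-fold. The call in cDC2 was lost without immature thymic cDC2 replicate 1, at -0.95. Within lane 8 the value was -0.88 and was not called, with 1 splenic cDC2 library that was assumed to vary like the other groups. Between tissues 1 member was called lower in cDC1 and 2 in cDC2, against 4.52% and 5.87% of all tested genes. No member was called higher, against 4.26% and 8.3% of all genes. Without overlap, 3 members were lower in cDC1 (8.92% of all genes), and 4 were lower (17.1%) and 1 higher (22.2%) in cDC2. By limma, 0 members were called for a tissue effect that differed between subsets, where 3.27% of all genes were called higher and 1.71% lower. There were also 0 at an unadjusted p below 0.05, and edgeR and DESeq2 called 0.

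Within lane 8 alone, H2-Oa differed between thymus and spleen by -1.33 in cDC1 (adjusted p = 0.00381), whereas H2-Ob, at -0.60 (adjusted p = 0.204), and Cd83, at -0.58 (adjusted p = 0.167), did not pass 0.1. In cDC2, where 1 splenic sample was in the lane and gave no replicate check, H2-Oa differed by -1.25 and Cd83 by -0.61.

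Ciita (ENSMUSG00000022504, chromosome 16 from 10480059 to 10528418), the transactivator of class II genes, had, with H2-DMa and H2-DMb1, the largest maturation changes of the members in cDC1. It was at 23051, 19307, 14975 and 18566 in immature and 1336, 442 and 1801 in mature thymic cDC1. In thymic cDC2 it was at 20786, 21033 and 18179 in immature and 7245, 6692 and 4971 in mature cells. All 3 mature cDC2 samples were above all mature cDC1 samples, and the latter differed widely among themselves. The log2 fold change with maturation was -4.20 (standard error 0.32, adjusted p = 4.97e-10) in cDC1 and -1.68 (standard error 0.34, adjusted p = 3.43e-04) in cDC2. Without mature thymic cDC1 replicate 2, the sample with 442, the change in cDC1 was -3.59. In the spleen the mean was 26003 ± 4194 (SD, n = 4) for cDC1, that of cDC2 being 28459 ± 6621 (SD, n = 3), with log2 differences of the thymus from the spleen of -0.46 (adjusted p = 0.421) and -0.49 (adjusted p = 0.352). Neither was called, although all splenic cDC2 samples were above all thymic ones. Of its exons, 329 bases overlap the antisense gene Dexi.

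Cd83 (ENSMUSG00000015396, chromosome 13 from 43784775 to 43803132) was the only member higher in mature cells. It was at 12786, 14227, 13973 and 14161 in immature and 32884, 32827 and 47191 in mature thymic cDC1. In thymic cDC2 it was at 18267, 25794 and 22207 in immature and 27729, 35826 and 33132 in mature cells. Mature and immature samples were separate in both subsets. The rise was 2.69-fold in cDC1 (log2 fold change 1.43, standard error 0.16, adjusted p = 1.70e-07), and in cDC2 the log2 difference was 0.55 (standard error 0.17, adjusted p = 0.0117), under 2-fold and not called. Splenic immature cells held more Cd83 than thymic ones, at 19625 to 22658 against 12786 to 14227 in cDC1 and at 34999 to 36636 against 18267 to 25794 in cDC2. These differences, of -0.59 and -0.70 on the log2 scale for thymus minus spleen (adjusted p = 0.00894 and 0.00544), were under 2-fold. Splenic immature cDC2, at 35574 ± 921 (SD, n = 3), and mature thymic cDC1, at 37634 ± 8276 (SD, n = 3), overlapped.

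**Figure D3:**
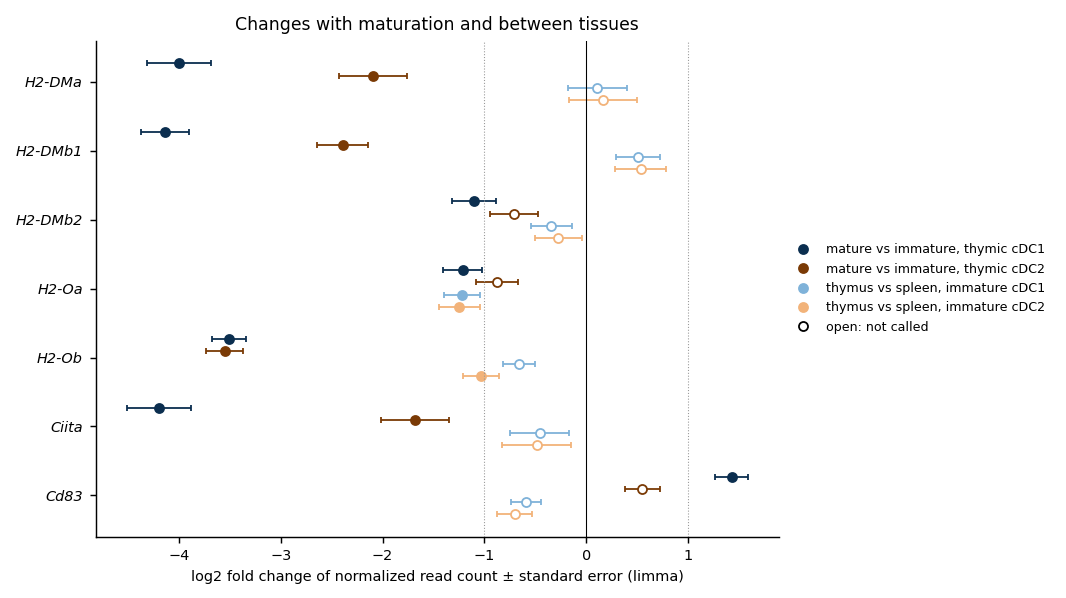
Log2 fold changes of the 7 genes, with standard errors from limma, for mature against immature thymic cells and for thymic against splenic immature cells of each subset. Filled points passed the adjusted p of 0.1 and the 2-fold change marked by dotted lines; the maturation changes reach -4.20 in cDC1 (Ciita) and -3.55 in cDC2 (H2-Ob).

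The decrease with maturation was smaller in cDC2 than in cDC1 for H2-DMa, H2-DMb1 and Ciita. The difference of the log2 fold changes, cDC2 minus cDC1, was 1.91 for H2-DMa (standard error 0.46, adjusted p = 0.0083), 1.74 for H2-DMb1 (standard error 0.34, adjusted p = 0.00176) and 2.52 for Ciita (standard error 0.46, adjusted p = 0.00102). Without mature thymic cDC1 replicate 2 the difference for Ciita was 1.91. These 3 were called, against 8.34% of all tested genes called in that direction. For H2-Ob the difference was -0.05 (standard error 0.25), for H2-Oa 0.34 (standard error 0.28) and for H2-DMb2 0.39 (standard error 0.32), none of them called. Cd83 differed by -0.88 (standard error 0.23, adjusted p = 0.0164), under 2-fold. Mature thymic cDC2 held more H2-DMa (log2 difference 1.98), H2-DMb1 (1.53), H2-DMb2 (1.95) and Ciita (2.61) than mature cDC1. These 4 members were called, against 14.6% of all tested genes called higher. Without the same replicate the difference of Ciita there was 2.00. With H2-Oa, 5 members were higher there without overlap, against 20.7% of all genes. The median of all tested genes in this comparison was 0.14, so relative to it each difference is smaller by that amount. H2-Oa, at 0.98, was not called there and passed 2-fold with TMM scaling, at 1.00. For H2-DMb2 the subsets already differed by 1.56 in immature thymic cells. Replicate 3 of mature cDC1 and replicate 3 of mature cDC2 carried the same pool label, 569. In that cDC1 and cDC2 sample H2-DMa was at 1403 and 2018, and H2-DMb1 at 1036 and 1695. H2-DMb2 was at 1708 and 3951 and Ciita at 1801 and 4971, closer than in samples of the other labels.

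All mature libraries were sequenced in lane 8, together with 3 of the immature thymic cDC1 and 2 of the immature thymic cDC2 libraries. Within lane 8 alone, the log2 fold changes with maturation in cDC1 were -4.07 for H2-DMa, -4.17 for H2-DMb1, -1.08 for H2-DMb2, -1.28 for H2-Oa, -3.52 for H2-Ob, -4.10 for Ciita and 1.39 for Cd83. In cDC2 they were -2.21 for H2-DMa, -2.44 for H2-DMb1, -0.75 for H2-DMb2, -0.98 for H2-Oa, -3.63 for H2-Ob, -1.65 for Ciita and 0.42 for Cd83. In cDC1 all 7 were called within the lane, and in cDC2 H2-DMa, H2-DMb1, H2-Ob and Ciita were, as over all lanes. The adjusted p of Cd83 in cDC2 was 0.142.

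Because H2-DM and H2-O fell to different degrees, their ratio was computed in each sample from the normalized read counts of all chains. In cDC1 the ratio was 1.36, 1.58, 2.28 and 1.51 in the spleen, 3.31, 3.50, 4.35 and 2.68 in the immature thymus and 1.93, 1.65 and 2.26 in mature thymic cells. In cDC2 it was 1.67, 1.39 and 2.01 in the spleen, 4.14, 3.51 and 4.54 in the immature thymus and 4.85, 4.70 and 4.50 in mature cells. In both subsets every immature thymic sample was above every splenic sample, with means of 3.46 against 1.68 in cDC1 and of 4.06 against 1.69 in cDC2. In mature cDC1 its mean was 1.95 ± 0.31 (SD, n = 3), below all immature thymic samples, whereas in cDC2 the mature and immature samples overlapped. No test was made on the ratio, since it combines members.

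The chains differed in this respect. For the alpha chains, H2-DMa to H2-Oa, immature thymic cDC1 had a ratio of 6.15 ± 0.47 (SD, n = 4), against 0.93 ± 0.37 (SD, n = 3) after maturation. In cDC2 it was 4.11 ± 0.19 in immature and 1.78 ± 0.25 in mature cells (SD, n = 3 each), again without overlap. For the beta chains, H2-DMb1 plus H2-DMb2 to H2-Ob, immature cDC1 had 2.59 ± 0.57 (SD, n = 4) and mature cDC1 3.63 ± 0.72 (SD, n = 3), which overlapped. In cDC2 the beta ratio was 4.05 ± 0.75 in immature and 17.0 ± 1.42 in mature cells (SD, n = 3 each), without overlap. The direction of the ratio of H2-DM to H2-O with maturation thus depended on the chain. With values per kilobase of exon, the ratio of all chains was 4.78 ± 0.43 in immature and 3.76 ± 0.08 in mature thymic cDC2 (SD, n = 3 each), the opposite direction to that without length. The mean ratio was higher in immature thymic than in splenic cells in each of these forms, although the beta ratios of cDC1 overlapped. Per kilobase, H2-Oa was 1.26 ± 0.30 (SD, n = 4) times H2-Ob before and 6.16 ± 1.54 (SD, n = 3) times after maturation of cDC1, and 2.55 ± 0.39 and 16.2 ± 1.66 times (SD, n = 3 each) in cDC2.

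**Figure D4:**
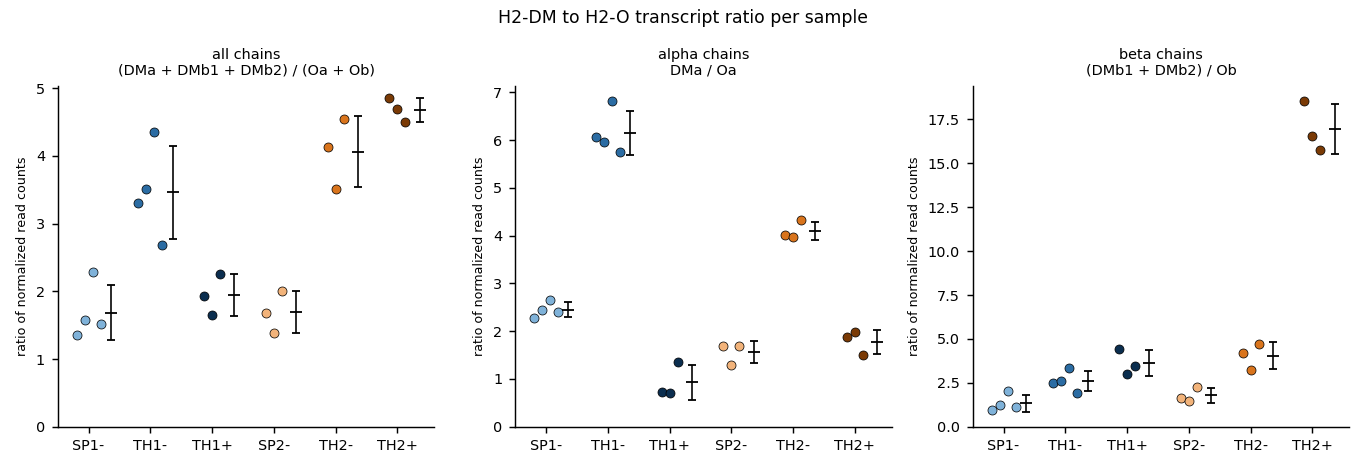
Ratio of H2-DM to H2-O normalized read counts in each sample (points) with group means and SD, for all chains, for the alpha chains and for the beta chains. The alpha ratio is lower in mature thymic cells of both subsets, at 0.72 to 1.98, whereas the beta ratio is at 15.8 to 18.5 in mature thymic cDC2.

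The other genes of the class II pathway, a list of 25 that were all tested, moved in both directions with maturation. In cDC1, 8 were called higher and 6 lower, and in cDC2, 8 were called higher and 2 lower. Of all tested genes, 21.3% were called higher and 24.5% lower in cDC1, and 18.6% and 17% in cDC2, so the 6 of 25 called lower in cDC1 are near that share. Their median log2 fold change was 0.30 in cDC1 and -0.03 in cDC2. Of the class II chains, H2-Ab1 averaged 210979 ± 52300 (SD, n = 4) before and 34109 ± 25753 (SD, n = 3) after maturation of cDC1 (log2 fold change -2.85, adjusted p = 4.52e-06). It fell by 1.57 on the log2 scale in cDC2 (adjusted p = 0.00545). H2-Aa, H2-Eb1 and Cd74, the invariant chain, fell by 1.12, 1.14 and 1.23 on the log2 scale in cDC1. In cDC2 their log2 differences were -0.83, -0.83 and -0.94 and were not called.

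H2-Eb2, a second E beta gene that holds the motif pair shown above, moved the other way. In cDC1 it was at 822 ± 72.6 (SD, n = 4) before and 10816 ± 3682 (SD, n = 3) after maturation, and at 1471 ± 143 and 15527 ± 965 (SD, n = 3 each) in cDC2, log2 fold changes of 3.67 (adjusted p = 3.02e-13) and 3.40 (adjusted p = 8.92e-12). March1, the ligase that CD83 opposes, averaged 4800 ± 927 (SD, n = 4) before and 29.9 ± 21.5 (SD, n = 3) after maturation of cDC1, and was at 3685 ± 473 and 173 ± 82.2 (SD, n = 3 each) in cDC2. Its log2 fold changes were -7.71 (adjusted p = 5.53e-11) and -4.54 (adjusted p = 6.75e-07).

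Among the proteins that bind X and Y boxes, the RFX subunits Rfx5 and Rfxank rose in both subsets (log2 fold changes of 1.14 and 1.37 in cDC1, 1.13 and 1.10 in cDC2), and Rfxap, Nfya, Nfyb, Nfyc and Creb1 were not called. Of the transcription factors known to act on Ciita, Irf1, an activator, rose by 5.04 in cDC1 and 3.00 in cDC2 on the log2 scale, and Prdm1, a repressor, by 5.51 and 1.90. Irf4 was called in cDC1 alone, at 3.73 against -0.19 in cDC2, and Irf8 in cDC2 alone, at 2.49 against -0.66 in cDC1, and both differences between subsets passed the test (adjusted p = 2.58e-06 and 3.62e-06). Spi1 was not called. Lgmn, an endosomal protease also called AEP, rose by 3.88 and 1.58, Ifi30, a thiol reductase, rose by 1.14 in cDC1, and Ctss, Ctsl and Sppl2a were not called. H2-Ea-ps, a pseudogene of the E alpha chain, was called lower in cDC1 and higher in cDC2 but was at 14.2 or less in every sample.

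**Figure D5:**
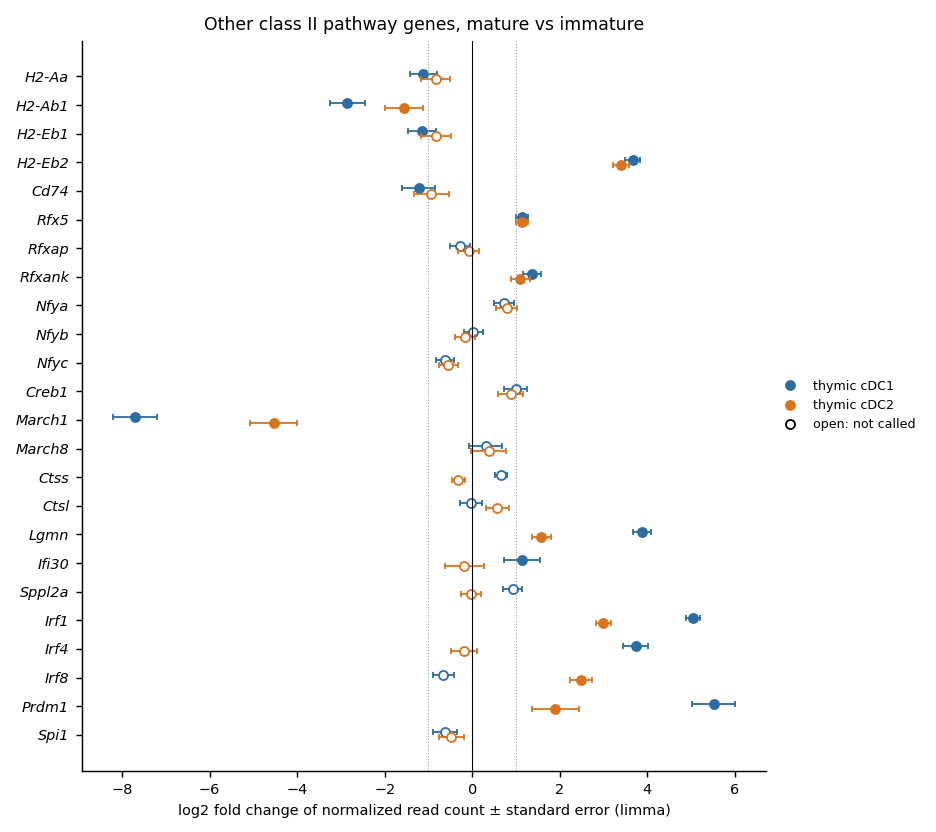
Log2 fold changes with standard errors from limma for 24 other class II pathway genes in mature against immature thymic cDC1 and cDC2 (H2-Ea-ps left out), filled where called. March1 is lowest, at -7.71 in cDC1, and H2-Eb2 is at 3.67 and 3.40 while H2-Ab1 is at -2.85 and -1.57.

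Markers of other cell types moved with some of these groups. Of 6 T cell markers, 5 were called higher and 1 lower with maturation in cDC1, and 5 higher and 0 lower in cDC2. Their summed level was 176 to 222 in immature against 486 to 839 in mature thymic cDC1, and 186 to 304 against 480 to 947 in cDC2. Between tissues, 5 were called higher in thymic cDC1, and in cDC2 1 was called higher and 1 lower, with splenic sums of 135 to 287 and 234 to 407.

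Of 8 B cell markers, 5 could be tested, and 5 were called lower in the thymus than in the spleen in each subset. Their sums were 1496 to 1941 in splenic against 207 to 239 in immature thymic cDC1, and 6940 to 7769 against 549.7 to 607 in cDC2. Cd22 and Ms4a1 made up most of the sum in splenic cDC1, and Cd22 with Cd79b most of it in cDC2. Cd79b, part of the B cell receptor complex, was at 377 to 471 in splenic and 134 to 213 in immature thymic cDC2, and at 51.5 to 145 and 10.1 to 28.1 in cDC1. Cd79a, its partner in that complex, was at 14.4 or less in every sample, and so were Pax5 and Ebf1. With maturation, 1 B cell marker was called higher in cDC1 and 2 in cDC2, and 1 was called lower in each subset.

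Of 7 macrophage markers, 7 were called higher in cDC2 than cDC1 among mature thymic cells, with sums of 2261 to 14749 against 86.7 to 549. Between tissues, 4 were called higher in thymic cDC2 and 0 were called in cDC1. With maturation 1 was called higher and 4 lower in cDC1, and 0 higher and 2 lower in cDC2. Of 4 plasmacytoid DC markers tested, 1 was called higher in thymic than splenic cDC1 and 4 in cDC2, with sums of 5178 to 5967 against 3351 to 3863 and of 10539 to 12114 against 3270 to 3960. With maturation 2 were called lower in cDC1 and 3 in cDC2.

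Of 6 genes of the thymic epithelial list, 4 were called higher in thymic than splenic immature cDC1 and 6 in cDC2, with sums of 597 to 711 against 57.2 to 79.3 and of 3507 to 3877 against 96.1 to 156. With maturation 2 were called higher and 1 lower in cDC1, and 4 higher and 1 lower in cDC2, where the sums reached 1805 to 2579 and 3817 to 4878. Epcam made up most of the sums in immature thymic cells, at 501 to 663 in cDC1 and 3391 to 3715 in cDC2. In mature cells Epcam was lower, at 102 to 226 in cDC1 and 334 to 426 in cDC2, unlike the other genes of the list named here. The keratin Krt5 was at 110.7 to 237 in mature against 19.4 to 43.8 in immature thymic cDC2, and Krt8 at 120.1 to 253 against 35.5 to 51.4. Psmb11, a thymic proteasome subunit, was at 103 to 111 in mature and 7.5 to 20.8 in immature thymic cDC2. Aire was at 1550 to 3978 in mature and at 60.7 or less in immature samples. Foxn1, the transcription factor of that lineage, was at 25.3 or less in every thymic sample. The part of these cells in the results was not tested.

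The genes whose levels were most like each member over the 20 samples were found among 10217 genes with a mean of at least 100, by Pearson r of the log2 values. The samples share 6 groups, so r mainly describes differences between groups. For H2-DMa they were Ftsj1, Pomt1 and L3mbtl2 (r = 0.984, 0.984 and 0.983), and for H2-DMb1 they were Mthfd1l, Rnpep and Prmt5 (0.986, 0.985 and 0.985). H2-DMb2 was most like Niacr1, Sulf2 and Cx3cr1 (0.962, 0.961 and 0.955). The closest genes to H2-Oa were Rac2, Stard5 and Cd22 (0.980, 0.970 and 0.958), and those to H2-Ob were 5031414D18Rik, Kit and Plac8 (0.989, 0.988 and 0.986). Ciita was closest to Tnfrsf21, Gm17296 and Gpr18 (0.990, 0.985 and 0.979), and Cd83 to Crem, Il4ra and Arhgef3 (0.951, 0.939 and 0.933). No gene was among the 3 nearest of more than 1 member.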

How the data were processed

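The authors ran Cutadapt on paired reads of 150 bases, mapped them with STAR (version 2.6 per the labels) to mm10, assigned them to Ensembl genes with HTSeq-count, and scaled the result in DESeq2 (version 1.24.0 per the labels). The deposited values are a signal: counted reads over the size factor of the library. Whole reads were recovered for 100% of values (tolerance 0.01 reads). The members and lists were chosen with earlier results of these data known, and the motif pair after the promoter sequences were seen.

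The log2 of the value plus 1 was fitted with limma (version 3.58.1, R 4.3.3) with 1 mean per group and an intensity trend, for the 14970 genes that reached 10 in 3 or more samples. Calls needed a Benjamini-Hochberg adjusted p below 0.1 over all tested genes and a more than 2-fold change. edgeR (4.0.16) and DESeq2 (1.42.0) on the recovered reads, other scalings, pseudocounts, filters, lanes, pools and the omission of each sample were alternatives. Methods were tested on simulated data in which far fewer genes changed than were called here with maturation in cDC1. Their error rates on these data were not measured. Named were the members, the pathway and marker lists and the 3 genes most like each member; 1 gene of the pathway list and 1 of the B cell list are not reported here. Positions, exon lengths and overlaps are from GENCODE M21 (GRCm38, 37693 of 37734 identifiers matched), and promoter sequences from RefSeq (GRCm38.p6).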

Additional observations from a re-analysis of the deposited data

Results flagged for a closer look

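Among 66 groups of 4 samples checked for a sample far from the others, 4 had one, all in immature splenic cDC1, where chance gives about 1 in 20. H2-DMa was highest in replicate 3, at 16104, and so were H2-Ab1, at 282598, and Cd74, at 473960, while H2-Ob was lowest in the same replicate, at 8804.

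The maturation effect was called different between subsets, as cDC2 minus cDC1 on the log2 scale, for H2-DMa (1.91), H2-DMb1 (1.74) and Ciita (2.52). Of the pathway list, it was also called for March1 (3.17), Irf8 (3.15), Lgmn (-2.30), Irf4 (-3.92), Prdm1 (-3.61) and Irf1 (-2.05). H2-Ea-ps, at 14.2 or less in every sample, was called too, as higher. The tissue effect was called different between subsets for H2-Eb2 (-2.17) and Irf4 (3.57).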

How the results depend on the processing

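Of the log2 fold changes of the 7 members under alternatives other than leaving out a sample, 831 kept direction and side of the threshold, 13 changed direction, 2 became calls and 1 was lost; the cause was not tested. Without the fold threshold, 7 members passed in mature against immature thymic cDC2 (4 with it) and 3 each in thymic against splenic cDC1, splenic cDC2 against cDC1 and immature thymic cDC2 against cDC1 (1 each with it). Of all 14970 tested genes, 2308, 4394 and 3892 passed without it in the latter 3 comparisons, in that order. For maturing cDC2 that count is not given here, and 5329 genes passed with the fold threshold. Above a log2 fold change of 2, 4 of 7 remained called in maturing cDC1, 1 of 4 between mature subsets, 1 of 3 for the maturation effect between subsets, and 0 in both tissue comparisons and both immature subset comparisons. Within lane 8, 1 of 2 was called in thymic against splenic cDC2. H2-Oa passed 2-fold between mature subsets with TMM in edgeR and with values rescaled by TMM (both 1.00).

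The log2 difference of the H2-DM to H2-O ratio was -0.82 with maturation in cDC1 and 0.21 in cDC2. With alpha chains alone it was -2.79 and -1.21, with beta chains alone 0.49 and 2.08, and per exon length -1.39 and -0.34. Between tissues in cDC2 it was 0.99 within lane 8. For cDC2 against cDC1 it was -0.66 (alpha) and 0.46 (beta) in the spleen, -0.58, 0.65 and -0.063 (per length) in immature and 0.99, 2.24 and 0.98 in mature thymic cells.

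Uncalled values near 0 changed sign. H2-DMa in splenic cDC2 against cDC1 was -0.0035 in edgeR with TMM, -0.0014 with rescaling, and -0.049 with 1 sample per pool number and in the pools of both subsets with or without the replicate block; H2-Ob was 0.0017 in the latter 3. Within lane 8, H2-DMa was -0.042 between tissues in cDC1, and for the tissue effect between subsets H2-DMb1 was -0.036, H2-DMb2 -0.052 and H2-Oa 0.074. With all 21 libraries H2-DMb1 was -6.35e-04 there.

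Leaving out 1 sample at a time, members called ranged from 1 to 2 in thymic against splenic cDC2. Values that changed sign ranged in the spleen from -0.11 to 0.24 (H2-DMa), -0.057 to 0.024 (H2-Ob) and -0.063 to 0.22 (Ciita), between tissues from -0.063 to 0.28 and -0.068 to 0.29 (H2-DMa in cDC1 and cDC2), in immature thymic subsets from -0.076 to 0.24 (H2-DMa) and -0.019 to 0.19 (Ciita), and for the maturation effect from -0.26 to 0.24 (H2-Ob). For the tissue effect they ranged from -0.18 to 0.23 (H2-DMa), -0.15 to 0.16 (H2-DMb1), -0.10 to 0.23 (H2-DMb2), -0.16 to 0.093 (H2-Oa), -0.14 to 0.15 (Ciita) and -0.23 to 0.022 (Cd83). Cd83 was called for the maturation effect without immature thymic cDC2 replicate 1 (-1.01), and H2-Oa between mature subsets without mature thymic cDC1 replicate 3 (1.13) or cDC2 replicate 3 (1.15).

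All genes called were 6848 and 5329 with maturation in cDC1 and cDC2, 1313 and 2121 between tissues, 2489, 2456 and 2834 between splenic, immature and mature thymic subsets, and 2035 and 746 for the maturation and tissue effects. In that order they were 3798, 2731, 656, 999, 1258, 1420, 1574, 1105 and 428 above a log2 fold change of 2, and 4095, 3123, 580, 1083, 1308, 1086, 1128, 1183 and 436 with 10 in every sample, where fewer genes were tested. By adjusted p alone they were 2308 and 3965 between tissues and 4394, 3892 and 4535 between subsets. Within lane 8 they were 844 (cDC1 tissues), 1659 (splenic subsets), 1218 and 225 (both effects), and 1704 between mature subsets when they were fitted alone.

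Samples with the same pool number had correlated deviations of -0.04, 0.33 and 0.46 in the spleen and -0.11, 0.21 and 0.15 in the immature thymus. Mature samples were left out of this check. Between different pool numbers they ranged from -0.49 to 0.34 in the spleen and from -0.38 to 0.27 in the thymus. The numbers were not taken as pairs, and deviations from the mean of so few samples cannot decide whether they are. With the pool number as a replicate block, 1 member was called in each tissue, as without it, and 2749 against 2537 genes in the spleen and 2655 against 2667 in the thymus. Depth limits no member, and 3 or 4 samples a group limit small differences.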

Other observations

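Between immature thymic and splenic cells, the class II chains H2-Aa, H2-Ab1 and H2-Eb1 and the invariant chain Cd74 were not called in either subset, with log2 differences between -0.08 and 0.27. March8, a second ubiquitin ligase of class II molecules, was higher in the thymus in both subsets, by 2.604 in cDC1 (limma adjusted p = 1.64e-05) and 2.39 in cDC2 (adjusted p = 1.77e-04) on the log2 scale, whereas March1 was not called (-0.40 and 0.07). The level of March8 was low, with means of 27.0 in splenic and 170 in thymic cDC1 and of 25.4 and 138 in cDC2. Means of March1 in these 4 groups were 3600 to 6501. H2-Eb2 was called in opposite directions between tissues, at 822 ± 72.6 (SD, n = 4) in thymic against 380 ± 54.7 (SD, n = 4) in splenic cDC1 and at 1471 ± 143 against 3039 ± 179 (SD, n = 3 each) in cDC2.

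Between subsets, the proteases Ctss, Ctsl and Lgmn were called higher in cDC2 than cDC1 in both immature groups, with log2 differences of 1.22, 1.48 and 2.30 in the spleen and 1.59, 1.14 and 1.82 in the thymus. In mature cells Ctsl was called (1.74), and Ctss (0.63) and Lgmn (-0.49) were not.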
